A study of Mus musculus with 38 samples.

Results

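The Recruited tumour is 1 of 3 variants of a mouse glioma model in this study, and the data described here set ribosome-bound RNA of its Olig2 cells against total RNA of the same tumours. The arrays were taken by their labels. They were the 3 arrays of bound RNA and the 3 arrays of total RNA from the Recruited tumour, 6 of the 38 one-colour Affymetrix mouse arrays of the series. The other groups used were bound and total RNA of the Pdgf tumour and of the Pdgf Cre tumour, with 3 arrays each. The remaining 20 arrays came from cortex and served only to scale the values, to set the filter and to describe the tumour arrays. All groups were labelled as coming from a mixture of the strains c57/bl6j, FVB and Swiss-Webster. The labels say that the tumours were induced, but give neither the inducing agent, the meaning of the name Recruited, the transgene that tags the ribosomes, the age of the mice, nor whether tumours were pooled. Nothing says that the 3 arrays of a group came from separate mice, so every p-value measures only spread between arrays. That spread was estimated for each gene over all tumour arrays, and the Recruited arrays varied more than those of the other tumours. A p-value for the Recruited tumour can thus be smaller than its own arrays would give.

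Translating ribosome affinity purification recovers mRNA from 1 cell population without sorting it. A tagged ribosomal protein is made only in the chosen cells, and an antibody to the tag pulls down their ribosomes with the mRNA that is being read. Total RNA of the same tissue holds every cell type. The arrays labelled total RNA carry the letters UB in their titles. Whether they also hold the RNA that stays in the nucleus cannot be told from the titles. Olig2 is a transcription factor of the oligodendrocyte lineage, present in dividing progenitors, in committed precursors and in myelinating cells, and gliomas driven by platelet-derived growth factor are rich in progenitor-like cells that make it. A gene that is higher in bound than in total RNA is thus one whose mRNA is better represented on the ribosomes of the tagged cells than in the tumour as a whole. In total RNA, fewer cells of a type and less RNA per cell cannot be told apart.

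Levels are log2 signals after quantile normalization over the 38 arrays, and a level under 5.64 (a signal of 50) is called dim. Same-numbered bound and total arrays deviated together from their group means (correlations over genes of 0.466, 0.266 and 0.488 for numbers 1, 2 and 3), so the numbers were taken as pairs. The total array of pair 3 lay nearer to normal brain than the others. Its correlation over genes with the mean of cortex total RNA was 0.885, against 0.700 and 0.718 for the total arrays of pairs 1 and 2. The bound array of pair 3 stood less far from its group, at 0.680 against 0.649 and 0.677. With normal cortical Olig2 bound RNA, the bound arrays of pairs 1, 2 and 3 correlated at 0.868, 0.907 and 0.937. The median SD of a gene was 0.301 in bound and 0.453 in total RNA of the Recruited tumour, above the 0.116 to 0.205 of the other tumour groups. Pair 2 had the largest differences between 3' and 5' probe sets of the Gapdh control, 3.81 in bound and 4.43 in total RNA, against 2.47 to 2.63 on the other 4 arrays. Results are given with all 3 pairs and, for its likeness to cortex, without pair 3. The arrays of pair 2 stay in both, so leaving out pair 3 does not address their 3' to 5' differences.

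Bound and total RNA of the Recruited tumour differed in many of the genes tested. Of 9799 genes, 2912 were called (29.7%), with 1573 higher (16.1%) and 1339 lower (13.7%) in bound RNA. A call needed a Benjamini-Hochberg adjusted p under 0.05 in limma and a difference of at least 2-fold after dim group means were raised to the dim limit. Bound and total arrays did not overlap for 5412 genes (55.2%), with the bound arrays above for 30.7% and below for 24.6% of genes, and 2595 genes were called and did not overlap (26.5%). Without pair 3, 2886 genes were called (29.5%), with 1535 higher (15.7%) and 1351 lower (13.8%). Of the 2912 calls, 2379 were kept without pair 3 (81.7%) and 0 were called in the opposite direction. Without pair 2, 2898 of the same 9799 genes were called, with 1559 higher and 1339 lower. The arrays do not fix the zero point between bound and total RNA. The higher genes were 54.0% of the calls after quantile normalization, 31.7% on the deposited values, where the median of all tested genes fell to -0.29, and 0.182% after scaling to the spike-in controls, where it fell to -2.67. Each rise and fall below is thus relative to the middle of the tested genes, whose median difference was 0.13, and 33 of the 125 called genes among those named changed sign on the spike-in scale. With the spread estimated from the 6 Recruited arrays alone, and not from all tumour arrays, 2047 genes were called in place of 2912. Of the genes called and described below, Olig2, Ppp1r14a, Caln1, Cck, Rlbp1, Sox10, Nkx2-2, Tmem163, Mag, Mog, Aldh1l1, Tyrobp, Ctss, C1qb, Col1a2, Col3a1, Rfc4, Fn1, Mvd, Sc5d, Lss and Rpl14 were not called in that fit.

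**Figure D1:**
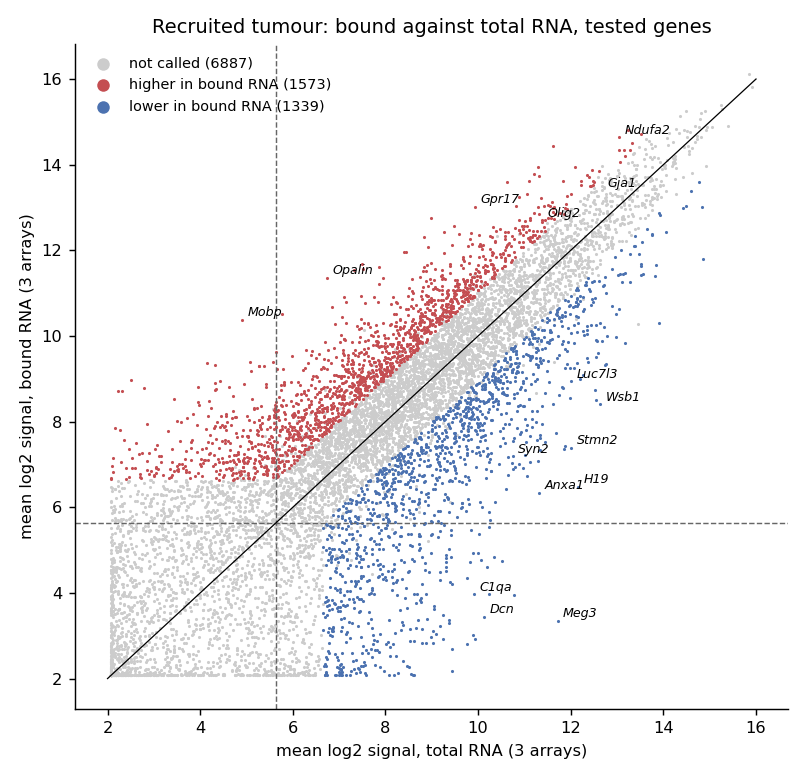
Mean log2 signal of each tested gene in bound RNA (vertical axis) against total RNA (horizontal axis) of the Recruited tumour, 3 arrays each, with genes called higher in red, genes called lower in blue and dashed lines at the dim limit. The 1573 red points, Mobp and Opalin among them, lie above the diagonal, and the 1339 blue points below it include Meg3 and Dcn, whose bound means are under the dim limit.

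Among genes whose means were above the dim limit on both sides, the largest rises were those of Ppp1r14a and Opalin. Opalin, a membrane glycoprotein of myelinating oligodendrocytes, had 9.59, 11.33 and 13.17 in bound RNA of pairs 1, 2 and 3, against 6.0, 6.05 and 8.17 in total RNA. It was lowest in pair 1 and highest in pair 3 in bound RNA, and the groups did not overlap. Its difference was 4.62 ± 1.05 (limma's SE, n = 3 each), a 24.6-fold rise with a limma adjusted p of 0.00185, and 21.6-fold without pair 3. That SE rests on the spread over all tumour arrays and not on the Recruited arrays alone, where the SD was 1.79 in bound and 1.24 in total RNA. Ppp1r14a, an inhibitor of myosin phosphatase, had 7.96, 10.74 and 12.83 in bound RNA, against 5.65, 4.34 and 7.31 in total RNA. That is a 26.8-fold rise over all pairs (adjusted p = 0.000934), and the call held without pair 3, where 1 of the 2 total arrays was dim. S1pr5, a sphingosine-1-phosphate receptor, had 10.07, 11.89 and 12.69 in bound RNA, against 7.80, 5.74 and 8.41 in total RNA (18.8-fold, adjusted p = 0.000358).

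Other large rises were far more even between the bound arrays. Scrg1, a small secreted protein, had 12.86, 12.67 and 12.76 in bound RNA, against 10.54, 9.06 and 7.37 in total RNA (13.7-fold, adjusted p = 2.83e-05), and 7.82-fold without pair 3. Tmem100, a membrane protein, had 11.80, 11.56 and 11.65 in bound RNA, against 8.63, 7.76 and 6.09 in total RNA (18.1-fold, adjusted p = 3.94e-06), and 11.2-fold without pair 3. In both genes the spread lay in total RNA, with pair 3 lowest. Gpc5, a glypican of the cell surface, had 12.53, 12.75 and 11.65 in bound RNA, against 8.58, 9.34 and 8.55 in total RNA (11.2-fold, adjusted p = 2.61e-05). The remaining members of the 15 largest rises were Plaat3, Gstt1, Ddt, S100a13, Fhit, Itih3, Fxyd1, Lims2 and Pdlim2. They rose between 11-fold for Pdlim2 and 16.5-fold for Plaat3, and each of these 15 genes was called without pair 3 too.

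The largest falls by the same rule were those of H19, Anxa1 and Stmn2. H19, an imprinted noncoding RNA, had 7.49, 6.48 and 5.48 in bound RNA, against 12.44, 12.63 and 11.42 in total RNA. The groups stood well apart, and the fall was 51.2-fold (adjusted p = 2.16e-06). Stmn2, a microtubule regulator of neurons, had 6.42, 7.37 and 8.40 in bound RNA, against 11.14, 11.16 and 13.74 in total RNA (24.6-fold lower, adjusted p = 0.0002), and was highest in pair 3 in both kinds of RNA. Elavl2, a neuronal RNA-binding protein, had 6.36, 6.59 and 6.32 in bound RNA, against 10.29, 10.19 and 11.34 in total RNA (18.2-fold lower, adjusted p = 2.45e-09). Nefm, a neurofilament subunit, had 7.02, 6.52 and 7.70 in bound RNA, against 11.12, 10.61 and 12.18 in total RNA (18.7-fold lower, adjusted p = 3.36e-06). Anxa1, an annexin not specific to neurons, had 6.70, 7.56 and 4.77 in bound RNA, against 11.28, 13.17 and 9.51 in total RNA, and pair 2 was highest in both (31.5-fold lower, adjusted p = 0.000108). The other 10 of the 15 largest falls were Ogfrl1, Slc2a13, Serpini1, Zic1, Rgs17, Wsb1, Caln1, Emp1, Cck and Nrsn1, between 16.5-fold for Nrsn1 and 23.7-fold for Ogfrl1. Each was called without pair 3 too, and Rgs17 then fell 8.21-fold in place of 19-fold.

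Olig2 itself, which marks the profiled cells, was high in both kinds of RNA and rose by little in pairs 1 and 2. It had 12.83, 12.73 and 12.54 in bound RNA, against 12.50, 12.17 and 9.45 in total RNA. The bound arrays were alike, and the total array of pair 3 stood alone at the low end. Olig2 was called higher over all 3 pairs (2.52-fold, difference 1.33 ± 0.54 by limma's SE over all tumour arrays, adjusted p = 0.0467). Its SD on the Recruited arrays was 0.15 in bound and 1.67 in total RNA. The difference was only 0.34 and 0.57 in pairs 1 and 2, but 3.09 in pair 3. Without pair 3 the rise was 1.37-fold and not called. Leaving out 1 pair or 1 array at a time, the call held in 4 of 9 settings: it ended without pair 3, without any 1 of the bound arrays, and without the total array of pair 3, where the difference was lowest at 0.37.

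Counts in the gene lists below stand beside the 16.1% of all tested genes that were higher and the 13.7% that were lower. Without pair 3 these shares were 15.7% and 13.8%. Markers of oligodendrocyte progenitors were called higher for 4 of the 13 tested and lower for 0. Gpr17, a receptor made as progenitors commit to differentiate, had 13.06, 12.69 and 13.29 in bound RNA, against 11.38, 9.26 and 9.19 in total RNA. Its bound arrays lay close together and above every total array (8.40-fold, adjusted p = 0.000848), and the rise was 5.88-fold without pair 3. Rlbp1, a retinaldehyde-binding protein, had 11.79, 11.53 and 11.49 in bound RNA, against 11.11, 8.55 and 6.83 in total RNA (6.83-fold, adjusted p = 0.00459), and 3.55-fold without pair 3. Sox10, a transcription factor of the whole lineage, rose 2.49-fold (adjusted p = 0.0258), and the call ended without pair 3 (1.51-fold), without the bound array of pair 2 and without the total array of pair 3.

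For other progenitor markers pair 3 differed from the rest. Cspg4, the NG2 proteoglycan of progenitors, had 9.49, 9.82 and 8.25 in bound RNA, against 9.11, 8.87 and 4.96 in total RNA, and was not called (adjusted p = 0.117), though the pair as a block called it. Pdgfra, the growth factor receptor of progenitors, was chosen after its values were seen. It had 11.03, 11.22 and 10.32 in bound RNA, against 11.54, 11.63 and 7.82 in total RNA, so that total RNA was higher in pairs 1 and 2 and lower in pair 3 (adjusted p = 0.554). The median difference of the 13 markers was 0.87 over all pairs, and 0.13, 0.03 and 2.75 within pairs 1, 2 and 3. Pair 3 had the largest difference for 12 of the 13, against 3512 of all 9799 tested genes. Without pair 3, 2 of the 13 were called higher and 2 lower, near the 15.7% and 13.8% of all tested genes.

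**Figure D2:**
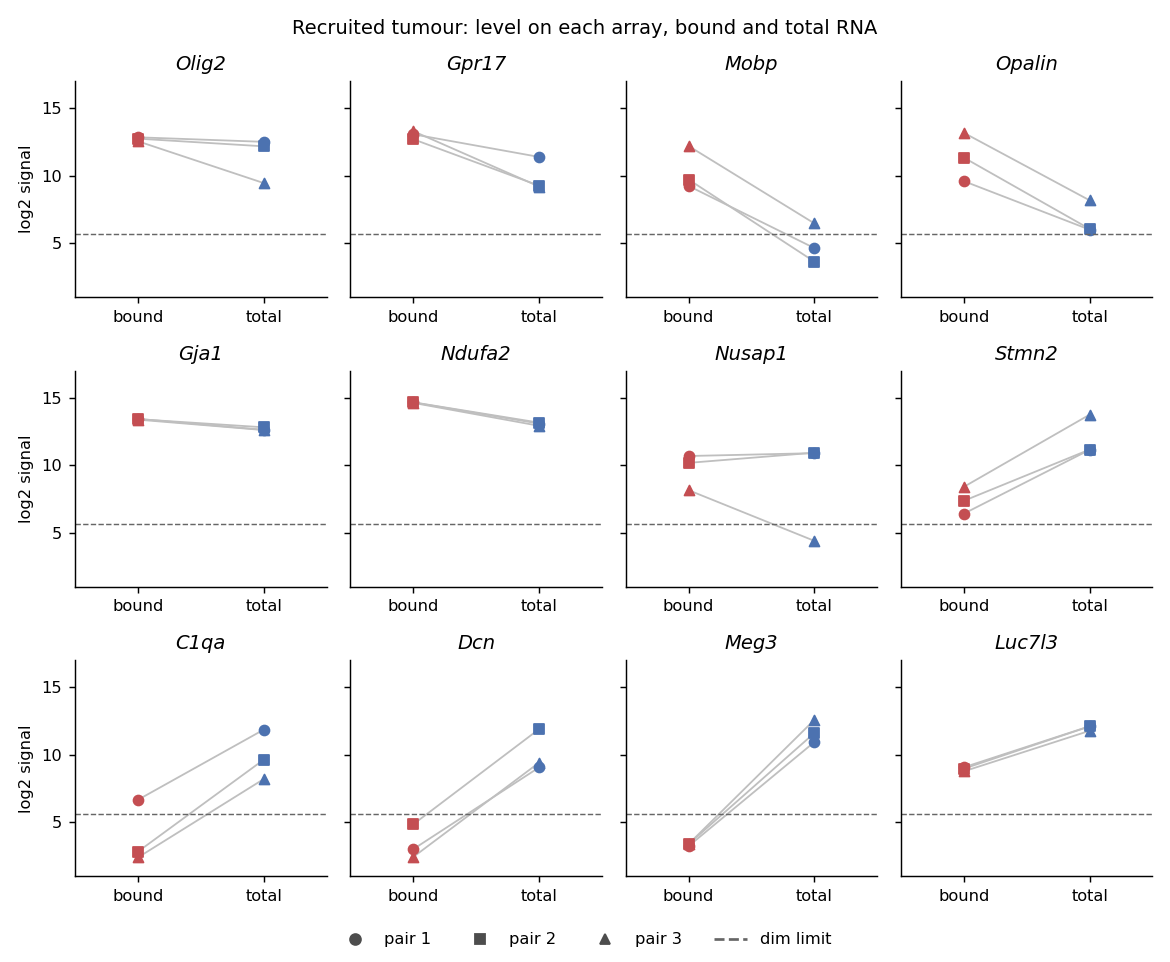
Log2 signal on each of the 6 Recruited arrays for 12 named genes, with bound RNA (red) at the left and total RNA (blue) at the right of each panel, lines joining the arrays of a pair, marker shapes for the pair and a dashed line at the dim limit. Gja1 and Luc7l3 changed by nearly the same amount in each pair, whereas Olig2 and Nusap1 fell steeply toward total RNA only in pair 3.

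Genes of committed precursors, the stage between progenitor and myelinating cell, rose more evenly, with 7 of 10 called higher and 1 lower and a median difference of 2.11. Within pairs 1, 2 and 3 the median was 0.93, 2.43 and 2.46. Sirt2, a deacetylase of oligodendrocytes, had 13.25, 13.52 and 14.46 in bound RNA, against 11.15, 10.75 and 12.04 in total RNA (5.37-fold, adjusted p = 2.97e-05). Cnksr3, a signalling scaffold, had 10.35, 11.31 and 12.36 in bound RNA, against 8.32, 8.23 and 9.16 in total RNA (6.81-fold, adjusted p = 5.39e-05). Bcas1, made by newly forming myelinating cells, had 9.92, 9.78 and 9.74 in bound RNA, against 8.77, 8.34 and 7.28 in total RNA (3.21-fold, adjusted p = 8.31e-05). In each of these genes every bound array lay above every total array, and each was called without pair 3.

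Bmp4, a secreted growth factor made by committed precursors, had 6.92, 8.16 and 9.81 in bound RNA, while its total arrays were all dim at 5.05 to 5.22, a rise of at least 6.29-fold (adjusted p = 0.000422). Nkx2-2, a transcription factor of the stage, was called (4.48-fold, adjusted p = 0.0148) with 11.31, 11.82 and 12.40 in bound RNA, against 11.13, 10.46 and 7.45 in total RNA. That call ended without pair 3 (1.70-fold) and without the bound array of pair 3. Tmem163, a zinc transporter, was called with overlapping arrays (4.16-fold, adjusted p = 0.022), and its call ended without pair 2, without either bound array of pairs 2 and 3 and without the total array of pair 2. The list kept 5 genes called higher and 1 lower without pair 3.

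Myelin genes were the marker list with the highest share of rises, 12 of 15 tested and 0 lower, with a median difference of 2.20. The median was 1.61, 3.21 and 2.64 within pairs 1, 2 and 3, and 10 of the 15 were called without pair 3. Mobp, a myelin protein, had 9.23, 9.71 and 12.19 in bound RNA, against 4.63, 3.63 and 6.46 in total RNA, where 1 of 3 arrays was above the dim limit (difference 4.73 with the dim mean raised, adjusted p = 6.53e-05 from the fit to the values as measured). Aspa, which breaks down N-acetylaspartate, had 8.74, 9.95 and 11.13 in bound RNA, against 6.71, 6.29 and 8.30 in total RNA (7.17-fold, adjusted p = 0.00295). Cryab, a small heat shock protein abundant in oligodendrocytes, had 14.34, 14.10 and 14.84 in bound RNA, against 12.35, 10.82 and 11.68 in total RNA (7.01-fold, adjusted p = 3.82e-05). In the bound arrays the list's median level was 11.15, 12.74 and 13.28 for pairs 1, 2 and 3, so the array of pair 1 was the lowest and that of pair 3 the highest.

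Mag and Mog, surface proteins of myelin, varied between arrays so that their groups overlapped. Mag, an adhesion protein on the inner face of the sheath, had 10.05, 12.90 and 13.28 in bound RNA, against 7.68, 8.46 and 10.64 in total RNA, where the lowest bound and the highest total array overlapped (8.87-fold, adjusted p = 0.00879), and the call ended without pair 2. Mog, on the outer face, had 11.32, 14.38 and 15.07 in bound RNA, against 9.29, 10.22 and 12.33 in total RNA (7.89-fold, adjusted p = 0.0364). Within every pair bound RNA was higher, but the call held in only 3 of 9 settings that left out a pair or an array. It ended without pair 2 or 3, without the bound array of pair 2 or 3 and without the total array of pair 1 or 2.

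Synthesis of cholesterol, a main lipid of myelin, had 7 of its 8 tested genes higher and 0 lower, with a median difference of 1.30. Mvd, which makes the isoprene unit, had 7.10, 8.25 and 9.19 in bound RNA, against 5.66, 6.91 and 6.21 in total RNA (3.78-fold, adjusted p = 0.00129). Cyp51, which removes a methyl group from lanosterol, had 10.23, 10.72 and 10.73 in bound RNA, against 8.72, 9.67 and 8.17 in total RNA (3.26-fold, adjusted p = 0.000111). Mvk, mevalonate kinase, was dim on all total arrays and rose at least 2.44-fold (adjusted p = 2.44e-07). The within-pair medians were 1.14, 1.06 and 2.41, and 3 of the 8 genes were called without pair 3. Lss, Sc5d and Mvk were among those that lost the call, at 1.51-, 1.88- and 1.97-fold.

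Astrocyte markers did not fall in the Olig2 bound RNA of this tumour: 6 of 15 tested were higher, 0 were lower, and the median difference was 0.80. S100b, a calcium-binding protein of astrocytes that oligodendrocyte lineage cells also make, had 10.28, 10.27 and 10.28 in bound RNA, against 7.83, 6.50 and 6.41 in total RNA (10.3-fold, adjusted p = 7.42e-06). Slc1a2, the main glutamate transporter of astrocytes, had 7.88, 8.33 and 7.81 in bound RNA and was dim on all total arrays, a rise of at least 5.14-fold (adjusted p = 1.59e-09). Gjb6, the gap junction protein a connexin, had 11.12, 11.32 and 11.61 in bound RNA, against 9.47, 8.30 and 9.98 in total RNA (4.30-fold, adjusted p = 0.00163). Acsbg1, an acyl-CoA synthetase, rose 4.46-fold (adjusted p = 0.00135). These 4 genes were called in all 9 settings that left out a pair or an array, and the list again had 6 higher and 0 lower without pair 3.

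The weaker astrocyte calls were Aldh1l1 and Clu. Aldh1l1, a folate enzyme widely used to mark astrocytes, had 8.81, 9.56 and 9.26 in bound RNA, against 7.27, 6.75 and 9.13 in total RNA, where pair 3 stood above the rest (2.82-fold, adjusted p = 0.0201). That call ended without pair 1 or 2, without the bound array of pair 2 and without the total array of pair 1 or 2, while without pair 3 the rise was 4.52-fold. Clu, clusterin, rose 2.27-fold (adjusted p = 0.000521), and its call ended without the bound array of pair 1. Gja1, another connexin, had 13.43, 13.41 and 13.37 in bound RNA, against 12.62, 12.81 and 12.60 in total RNA. Its groups did not overlap, but the rise of 1.66-fold was under the 2-fold limit (adjusted p = 0.00325).

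Neuronal markers fell together, 13 of 16 tested and 0 higher, with a median difference of -3.49, or -2.90 with dim means raised to the limit. Syn2, a synaptic vesicle protein, had 7.28, 7.43 and 6.86 in bound RNA, against 10.14, 10.24 and 11.88 in total RNA (11.8-fold lower, adjusted p = 2.95e-06). Eno2, neuronal enolase, had 9.19, 10.22 and 10.11 in bound RNA, against 12.70, 12.83 and 14.01 in total RNA (10.1-fold lower, adjusted p = 2.48e-05). Nefl and Vsnl1 fell 10.8- and 10.7-fold. The bound arrays were not empty of these markers, whose median level was 6.72, 7.33 and 7.28, against 9.96, 10.25 and 11.52 in total RNA. Total RNA of pair 3 was the highest for these genes, and without pair 3 the count was 10 of 16 lower.

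Microglia and macrophage markers fell in 10 of 13 tested and rose in 0, with a median difference of -4.69, or -3.45 with dim means raised. C1qc, a complement subunit, was dim on all bound arrays (3.77, 2.21 and 2.08), against 11.62, 9.31 and 7.39 in total RNA, at least 13.9-fold lower (adjusted p = 5.09e-06). Csf1r, the growth factor receptor of macrophages, was dim on all bound arrays too, and at least 13.5-fold lower (adjusted p = 2.83e-06). Tyrobp, an adaptor of myeloid receptors, had 7.51, 4.85 and 4.26 in bound RNA, against 12.60, 10.01 and 8.08 in total RNA, with 1 of 3 bound arrays above the dim limit (difference -4.59 with the dim mean raised, adjusted p = 0.00117). Pair 1 was the highest in both kinds of RNA: the list's median level was 5.53, 2.71 and 2.65 in bound RNA of pairs 1, 2 and 3, and 10.87, 9.42 and 7.25 in total RNA. Ctss, cathepsin S, had the highest bound mean of the 13 markers, at 12.58, 10.50 and 7.85, against 14.93, 14.30 and 12.48 in total RNA (12-fold lower, adjusted p = 0.00567). C1qb, at 11.1-fold lower (adjusted p = 0.0111), lost its call without pair 2, without the bound array of pair 3 and without the total array of pair 1. Without pair 3, 11 of the 13 were lower.

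Vascular and connective tissue markers were lower as well. Of 11 tested pericyte, smooth muscle and fibroblast markers 7 fell and 0 rose, with a median difference of -3.88, or -2.92 with dim means raised, and the count without pair 3 was also 7. Dcn, the matrix proteoglycan decorin, was dim on all bound arrays (3.02, 4.86 and 2.44), against 9.07, 11.90 and 9.42 in total RNA, at least 22.4-fold lower (adjusted p = 4.87e-06). Col1a2, a chain of type I collagen, had 3.80, 6.80 and 3.93 in bound RNA, against 6.23, 13.61 and 11.20 in total RNA, with 1 of 3 bound arrays above the dim limit (difference -4.70 with the dim mean raised, adjusted p = 0.00392). Pair 2 was the highest in both kinds of RNA for Dcn and Col1a2, and also for Col3a1, which had 4.13, 11.01 and 6.95 in bound RNA, against 9.55, 14.27 and 11.74 in total RNA. The Col3a1 call (22.5-fold lower, adjusted p = 0.0178) ended without pair 3, without the bound array of pair 1 or 3 and without the total array of pair 2. Acta2, the actin of smooth muscle, fell 8.20-fold (adjusted p = 0.00697), and the call ended without pair 2.

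Of 6 tested endothelial markers 2 fell and 0 rose, and 3 fell without pair 3. Cldn5, a tight junction protein of the blood-brain barrier, was dim on all bound arrays (3.80, 3.58 and 3.58), against 9.42, 8.92 and 7.04 in total RNA, at least 7.04-fold lower (adjusted p = 1.36e-05). Egfl7 was dim on all bound arrays too, and at least 3.63-fold lower (adjusted p = 2.33e-07). Matrix and mesenchymal genes had 5 of 12 lower and 1 higher, with a median difference of -2.92, or -1.55 with dim means raised. With the pair as a block, 8 of the 12 were lower. Col4a1, a basement membrane collagen, had 7.38, 8.78 and 6.70 in bound RNA, against 11.51, 13.12 and 9.37 in total RNA (13.1-fold lower, adjusted p = 0.000796). S100a4, a calcium-binding protein, was the exception with 9.45, 9.87 and 9.72 in bound RNA, against 6.97, 8.19 and 5.12 in total RNA (7.56-fold higher, adjusted p = 0.000607). Fn1, fibronectin, fell 9.16-fold (adjusted p = 0.0114), a call that ended without the bound array of pair 3 and without the total array of pair 2. Lymphocyte, granulocyte and erythroid genes could not be compared, since 0 of the 11 and 0 of the 2 on the array passed the filter on low values.

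**Figure D3:**
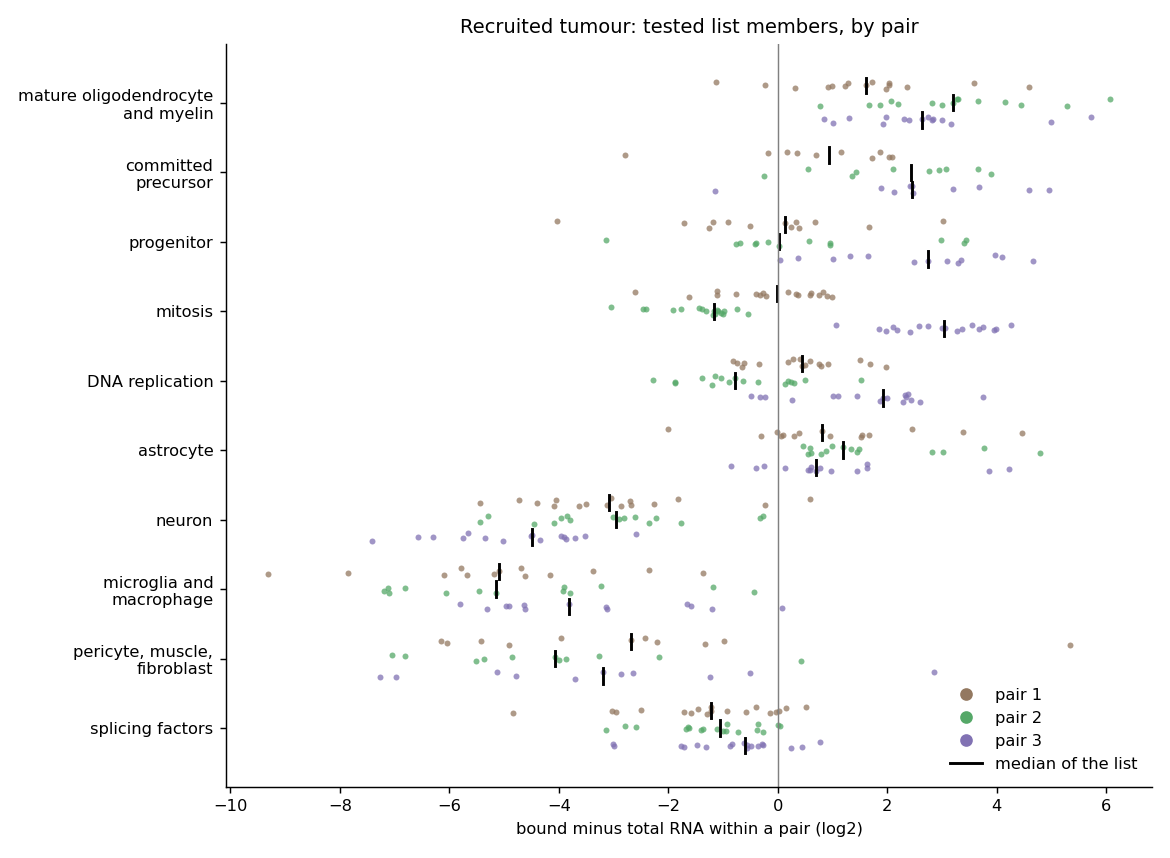
Bound minus total RNA (log2) within each pair for the tested members of 10 gene lists, 1 point a gene, with pairs 1, 2 and 3 in separate rows and a bar at each median. Mitosis medians were -0.02 and -1.17 in pairs 1 and 2 but 3.03 in pair 3, while the neuron, microglia and splicing medians were below 0 in each pair.

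Cell cycle genes were where pair 3 changed the picture most. Over all pairs 0 of 18 mitosis genes were called in either direction, at a median difference of 0.58, and limma's adjusted p for the 6 named members ran from 0.154 to 0.562. Nusap1, a spindle protein, had 10.68, 10.18 and 8.15 in bound RNA, against 10.89, 10.93 and 4.40 in total RNA. Prc1, a protein of the dividing spindle, had 10.07, 8.76 and 7.52 in bound RNA, against 9.32, 9.92 and 3.52 in total RNA. In both genes the total array of pair 3 was dim while the total arrays of pairs 1 and 2 were as bright as the bound ones. The same held for the list: its median level was 8.90, 7.81 and 7.03 in bound RNA, against 8.77, 9.02 and 3.65 in total RNA. Pair 3 had the largest difference for 18 of 18 mitosis genes. Without pair 3, 4 of the 18 were lower and 0 higher.

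Plk1, a kinase of mitotic entry, was called lower without pair 3 (7.10-fold, adjusted p = 0.000106) and not over all pairs (2.89-fold lower, adjusted p = 0.154). It had 6.37, 5.95 and 5.53 in bound RNA, against 8.98, 9.0 and 4.46 in total RNA. DNA replication genes gave a like order, with 1 of 17 higher and 0 lower over all pairs, within-pair medians of 0.44, -0.78 and 1.91, and 0 higher and 2 lower without pair 3. The 1 call, Rfc4 (3.98-fold, adjusted p = 0.0419), ended without pair 1 or 3, without the bound array of pair 1 or 3 and without the total array of pair 3. Mcm6, a subunit of the replicative helicase, had 12.49, 11.13 and 9.41 in bound RNA, against 10.99, 10.64 and 7.53 in total RNA (adjusted p = 0.189). Pair 1 was highest and pair 3 lowest for Mcm6 in both kinds of RNA, and the pair as a block called it, with 4 of the 17 replication genes then higher.

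Pair 1 stood apart in genes of antigen presentation and of the interferon response, in bound as much as in total RNA. Interferons act through a factor complex that binds a short DNA element with the letters GAAANNGAAA, or TTTCNNTTTC on the other strand. The tested genes of both lists that carried the letters in their RefSeq promoters (GRCm38.p6, around the gene start) are shown, each as a stretch around the match. They were chosen by list and letters, and not by their level in pair 1. Capitals mark the matches, and those of Bst2 overlap.
B2m: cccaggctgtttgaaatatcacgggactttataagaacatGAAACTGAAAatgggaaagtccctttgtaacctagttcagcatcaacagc
Bst2: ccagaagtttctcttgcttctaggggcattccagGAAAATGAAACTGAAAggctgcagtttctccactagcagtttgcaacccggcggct
Ifit1: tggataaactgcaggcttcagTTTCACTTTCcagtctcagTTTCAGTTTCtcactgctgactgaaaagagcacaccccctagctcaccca
Rsad2: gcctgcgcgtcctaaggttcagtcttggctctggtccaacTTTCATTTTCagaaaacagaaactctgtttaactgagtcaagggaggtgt
The stretches are B2m at chr2:122147508-122147597 on the + strand, Bst2 at chr8:71537547-71537636 on the - strand, Ifit1 at chr19:34640764-34640853 on the + strand and Rsad2 at chr12:26456523-26456612 on the - strand. The letters occurred in 1131 of all 32851 promoters in the table (3.44%), in 3 of 5 promoters of the tested interferon genes and in 1 of 10 promoters of the tested antigen presentation genes. A match describes the letters and is not evidence that a factor binds there.

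The values of these genes show the split by pair. Ifit1, an interferon-induced antiviral protein, had 9.56, 2.08 and 2.08 in bound RNA, against 7.02, 3.98 and 2.10 in total RNA. Bst2, the membrane protein tetherin, had 8.82, 2.18 and 2.17 in bound RNA, against 8.02, 2.97 and 2.70 in total RNA. Both were above the dim limit in pair 1 only. Psmb8, a subunit of the immunoproteasome, had 10.96, 3.82 and 3.80 in bound RNA, against 10.25, 2.81 and 2.75 in total RNA. H2-K1, a class I molecule of the major histocompatibility complex, had 12.80, 8.87 and 8.81 in bound RNA, against 12.98, 8.15 and 6.54 in total RNA. Of the class II genes, H2-Aa had 10.27, 2.84 and 2.51 in bound RNA, against 12.71, 7.56 and 6.48 in total RNA. In pair 1 Ifit1 was brighter in bound than in total RNA and H2-K1 was nearly equal, while H2-Aa was brighter in total RNA of every pair. Between bound and total RNA, 0 of 12 antigen presentation and 0 of 6 interferon genes were called over all pairs or without pair 3. With the pair as a block, where 31.2% of all tested genes were called and 14.4% were lower, 4 of the 12 antigen presentation genes were called lower in bound RNA, namely H2-Aa, H2-Eb1, Cd74 and Psmb9.

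**Figure D4:**
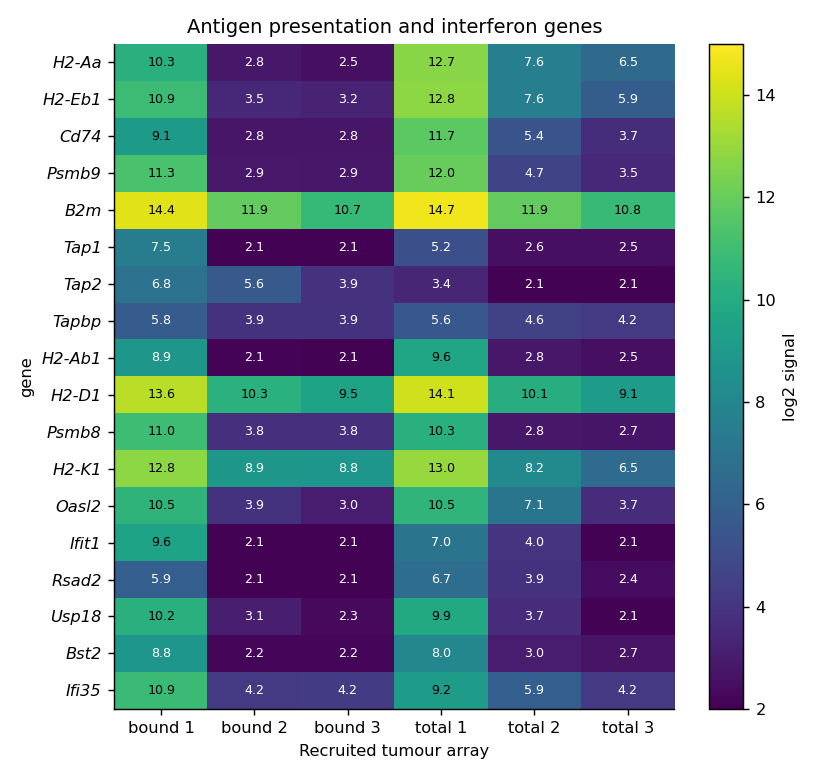
Log2 signal of 12 antigen presentation and 6 interferon response genes (rows) on the 3 bound and 3 total arrays of the Recruited tumour (columns), with the value printed in each cell and colour from dark (low) to yellow (high). The columns of pair 1 are the brightest in both kinds of RNA, with Ifit1 at 9.56 in bound and 7.02 in total RNA.

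The microglia markers of the preceding list were also highest in pair 1, and in bound RNA of pair 1 their median was 5.53. Their part in the interferon values was not tested. The Y-linked gene Eif2s3y, which shows whether male tissue was present, had 9.20, 10.92 and 2.08 in bound RNA, against 9.13, 11.50 and 3.82 in total RNA, so it was dim in both arrays of pair 3 alone. Xist was dim on all 6 arrays.

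Some noncoding RNAs were dim on every bound array. Meg3, an imprinted noncoding RNA of the nucleus, had 3.24, 3.39 and 3.40 in bound RNA, all dim, against 10.95, 11.61 and 12.59 in total RNA, at least 67.2-fold lower (adjusted p = 2.6e-11). Snhg11, another noncoding RNA, was dim on all bound arrays (2.13, 2.19 and 2.22), against 8.75, 8.87 and 10.67 in total RNA, at least 13.8-fold lower (adjusted p = 1.22e-09). Both calls were kept without pair 3, and these were 2 of the 3 tested members of the nuclear noncoding list. Of 86 tested genes that RefSeq classes as long noncoding, 17 were higher and 6 lower, or 6.98% lower, against 13.7% of the protein-coding genes. The 6 were H19, Meg3, Snhg11, Gas5, Snhg5 and Rnf227, of which Snhg5 was not called with the pair as a block. A gene dim in both groups could not be called, and many of the long noncoding genes were dim in both. An example was 4930429B21Rik, at -2.42. The shares thus do not show which class fell more. Gas5, a host of small nucleolar RNAs, was chosen after its values were seen, with 2.76, 3.28 and 3.29 in bound RNA, against 10.52, 8.83 and 7.75 in total RNA.

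Splicing factor mRNAs were lower in bound RNA for 8 of 18 tested and higher for 0, with a median difference of -0.95. Luc7l3, a component associated with the U1 particle, had 9.08, 8.98 and 8.78 in bound RNA, against 12.12, 12.11 and 11.78 in total RNA (8.32-fold lower, adjusted p = 5.14e-08). Its arrays were tight on both sides and alike in every pair. Rbm25, a regulator of splice site choice, had 5.92, 7.81 and 6.34 in bound RNA, against 10.76, 10.41 and 9.36 in total RNA (11.2-fold lower, adjusted p = 5.03e-06). Srsf1, a serine- and arginine-rich factor, had 10.44, 10.34 and 9.88 in bound RNA, against 13.40, 13.14 and 11.64 in total RNA (5.68-fold lower, adjusted p = 6.71e-05). The count without pair 3 was 10 of 18. Wsb1, a ubiquitin ligase subunit outside the list, had 8.39, 8.63 and 8.19 in bound RNA, against 13.57, 12.49 and 11.86 in total RNA, even in bound RNA but spread in total RNA.

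Genes of the machinery that every cell uses are set beside the 16.1% of all tested genes that were higher and the 13.7% that were lower. Of 22 tested respiratory chain genes 3 were higher and 0 lower, with a median difference of 0.51. Ndufa2, a subunit of complex I, had 14.65, 14.66 and 14.62 in bound RNA, against 13.08, 13.15 and 12.92 in total RNA (3.01-fold, adjusted p = 3.64e-09). Of 12 ribosomal protein genes 1 was higher and 0 lower, and that 1, Rpl14 (2.33-fold, adjusted p = 0.0144), lost its call without pair 3, without the bound array of pair 1 and without the total array of pair 3. Among 18 translation factors 1 was higher and 3 lower. Eef2, the elongation factor of translocation, had 12.96, 13.35 and 12.79 in bound RNA, against 14.59, 14.77 and 14.08 in total RNA (2.73-fold lower, adjusted p = 7.64e-05). When the deposited values or the spike-in scale were centred on the median of all genes, Eef2 was at -0.72 on both and was not called.

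Set against the other tumours, the bound-to-total difference of the Recruited tumour was itself different for many genes. The test was the difference of differences, which shares no arrays between the tumours. Against the Pdgf tumour 1351 of 9799 genes were called (13.8%), with 724 higher (7.39%) and 627 lower (6.4%). Against the Pdgf Cre tumour 1070 were called (10.9%), with 576 higher (5.88%) and 494 lower (5.04%). Without pair 3 of the Recruited tumour the counts were 1525 (15.6%, with 8.22% higher and 7.35% lower) and 1322 (13.5%, with 7.07% higher and 6.42% lower). For scale, bound against total RNA alone called 2912 genes in the Recruited, 1929 in the Pdgf (19.7%, with 9.96% higher and 9.73% lower) and 2378 in the Pdgf Cre tumour (24.3%, with 12.2% higher and 12% lower), and the spread between arrays was larger in the Recruited groups.

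Astrocyte markers gave the broadest contrast. The bound-to-total difference was higher in the Recruited tumour for 9 of 15 against the Pdgf and for 11 of 15 against the Pdgf Cre tumour, and lower for 0 in both, and for 9 and 10 without pair 3. The median bound-to-total difference was 0.80 in the Recruited tumour, against -0.90 in the Pdgf and -1.24 in the Pdgf Cre tumour. With dim means raised, these medians were 0.80, -0.45 and -0.91. Gja1 averaged 13.41 in bound and 12.68 in total RNA of the Recruited tumour, against 7.04 in bound and 11.18 in total RNA of the Pdgf tumour and 7.55 in bound and 11.50 in total RNA of the Pdgf Cre tumour. The tumours differed more in bound than in total RNA of Gja1, and the difference of differences was 4.86 (adjusted p = 5.08e-09) and 4.68 (adjusted p = 7.65e-09). For Gjb6 the differences of differences were 2.45 and 3.22 with dim means raised (adjusted p = 1.29e-05 and 0.000175).

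Selenop and Fam107a, both at their highest in astrocytes among the 4 normal cortical populations, headed the contrast with the Pdgf tumour. Selenop, a selenium carrier, averaged 13.51 in bound and 12.67 in total RNA of the Recruited tumour, against 8.16 in bound and 12.97 in total RNA of the Pdgf tumour (difference of differences 5.64, adjusted p = 9.97e-09). Fam107a averaged 13.08 in bound and 12.79 in total RNA of the Recruited tumour, against 6.42 in bound and 11.54 in total RNA of the Pdgf tumour (5.42, adjusted p = 8.79e-07). In both genes the bound arrays of the Recruited tumour were close to total RNA, while those of the Pdgf tumour were far below it. Against the Pdgf Cre tumour, Mgst1, a membrane glutathione transferase, averaged 11.51 in bound and 8.88 in total RNA of the Recruited tumour, against 5.42, a dim mean, in bound and 8.43 in total RNA of the Pdgf Cre tumour (5.41 with dim means raised, adjusted p = 1.36e-05).

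For myelin genes, the difference of differences was higher for 8 of 15 against the Pdgf and 7 of 15 against the Pdgf Cre tumour. It was lower for 0 in both, with the same counts without pair 3. The median bound-to-total difference was 2.20 in the Recruited tumour, against -0.13 in the Pdgf and 0.13 in the Pdgf Cre tumour. With dim means raised, these medians were 2.20, 0 and 0.02. Trf, the iron carrier transferrin made by oligodendrocytes, averaged 13.78 in bound and 11.21 in total RNA of the Recruited tumour, against 7.26 in bound and 9.71 in total RNA of the Pdgf tumour (difference of differences 5.02, adjusted p = 0.000336). Against the Pdgf Cre tumour, with 9.75 in bound and 10.67 in total RNA, the difference of differences of Trf was 3.49 (adjusted p = 0.00567). For Opalin the test did not pass (adjusted p = 0.388 and 0.108). For committed precursor genes, the difference of differences was higher for 5 of 10 against each model. It was lower for 0 against the Pdgf and 1 against the Pdgf Cre tumour. Without pair 3 it was higher for 3 of 10 against each model.

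Progenitor and cell cycle genes gave different counts with and without pair 3. The difference of differences was higher for 1 of 13 progenitor markers against each model, a share near the 7.39% and 5.88% of all tested genes. That marker was Gpr17 in both, at 3.79 (limma adjusted p = 0.00526) against the Pdgf and 3.12 (limma adjusted p = 0.0182) against the Pdgf Cre tumour. The second call ended without pair 3, at 2.61. Without pair 3, 4 of the 13 were higher and 1 lower against the Pdgf tumour, and 1 was higher and 1 lower against the Pdgf Cre tumour. Of all tested genes 8.22% and 7.07% were then higher against the Pdgf and the Pdgf Cre tumour, and 7.35% and 6.42% lower. Mitosis and replication genes had 0 calls of 18 and 0 of 17 against either model over all pairs. Without pair 3, the difference of differences was lower for 4 and 6 of the 18 mitosis genes against the Pdgf and the Pdgf Cre tumour. It was lower for 2 and 5 of the 17 replication genes. Neuronal markers were called lower for 13 of 16 in the Recruited, 7 in the Pdgf and 9 in the Pdgf Cre tumour, and the difference of differences was lower for 2 of 16 against each model. The 2 genes were Syn2 and Gad2 in both tests, with Syn2 at -2.84 (adjusted p = 0.00128) and -2.55 (adjusted p = 0.00316). For microglia markers, the difference of differences was higher for 3 of 13 against the Pdgf and 0 of 13 against the Pdgf Cre tumour. Without pair 3 it was higher for 0 of 13 against either.

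**Figure D5:**
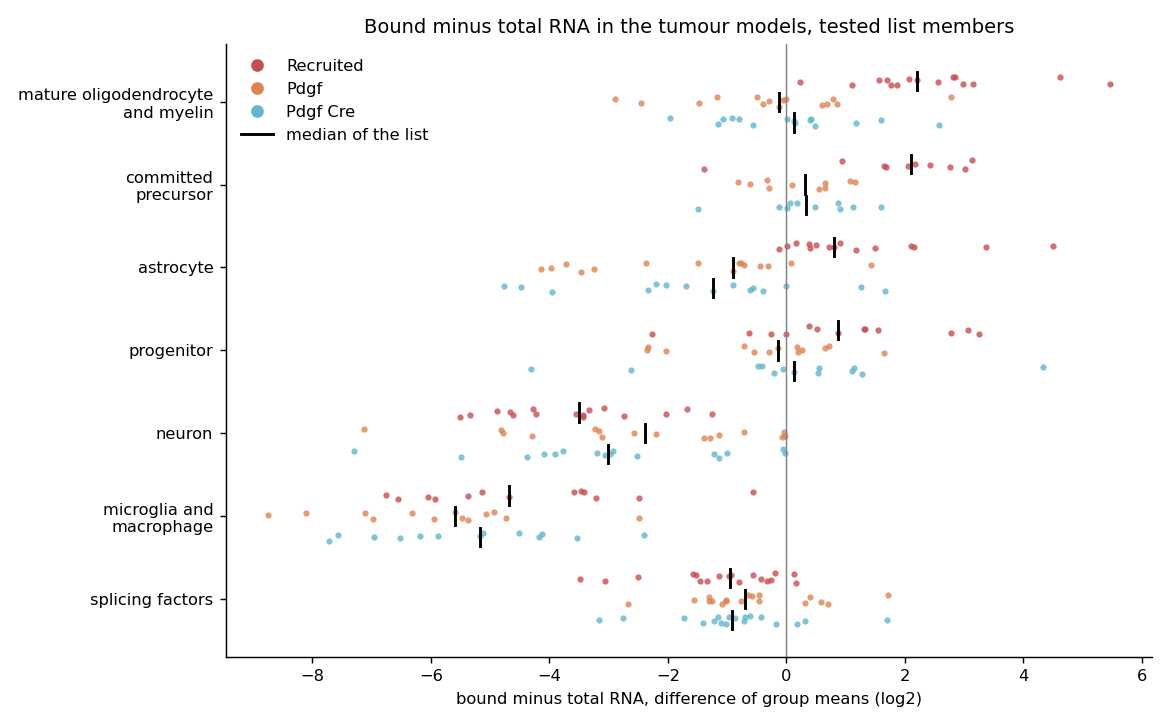
Bound minus total RNA (log2 difference of group means, 3 arrays each) for the tested members of 7 gene lists in the Recruited (red), Pdgf (orange) and Pdgf Cre (light blue) tumours, 1 point a gene, with a bar at each median. Dim means were not raised here. Astrocyte medians were 0.80 in the Recruited, -0.90 in the Pdgf and -1.24 in the Pdgf Cre tumour. The neuron and microglia medians were below 0 in each tumour.

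The called genes were also sorted by the normal cortical population in which they were highest, for the genes at least 2-fold above the next of 4 populations. Of 603 such genes among the higher ones, astrocytes had 306 (50.7%), mature oligodendrocytes 191 (31.7%), progenitors 77 (12.8%) and neurons 29 (4.81%). Among all 3045 tested genes with such a mark, the astrocyte share was 34.5%, the mature oligodendrocyte share 20.5%, the progenitor share 12.2% and the neuron share 32.7%. Of 430 such genes among the lower ones, 313 were highest in neurons (72.8%). The share of progenitor genes among the rises was thus near that of the tested genes, while those of astrocyte and mature oligodendrocyte genes were above it and that of neuronal genes below it. These shares describe the calls and were not tested.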

How the data were processed

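RNA was hybridised to one-colour Affymetrix mouse arrays after 2-cycle amplification, per the labels' protocols. The deposited values are log2 expression values made with GCRMA, per the submitters' processing notes. Each group shares its own minimum, so the arrays were probably processed group by group and the scale between groups is not settled. If so, bound and total RNA also differed in processing run, and an effect of the run on single genes cannot be told apart. Of 16395 probe sets, 64 were controls, 687 had no gene and 15644 had 1 gene, of which 15617 symbols matched RefSeq. Columns left out of the table numbered 0. The values were quantile normalized over 38 arrays, and 9799 genes above a signal of 50 on at least 3 arrays were tested, leaving out 5845.

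Groups were compared with limma 3.58.1 in R 4.3.3 on the 18 tumour arrays, which share 1 estimate of the spread with 12 residual degrees of freedom. The fit had no term for the pair. Group means under the dim limit were raised to it before the 2-fold threshold was applied. Same-numbered arrays correlated at 0.266 to 0.488 in the Recruited, 0.473 to 0.626 in the Pdgf and 0.428 to 0.621 in the Pdgf Cre tumour, so the numbers were taken to pair the samples, and a fit with the pair as a block (6 residual degrees of freedom) was an alternative. The Recruited comparison without the pair term was tested on simulated data with independent noise. The fit with the block and the differences of differences were not. The simulation gave every tumour group the same spread per gene and placed large changes only in genes well above the dim limit. It thus could not test groups of unequal spread, dim genes or changes near 2-fold. The number of arrays limits the precision.

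Named genes were Olig2, the 15 largest rises and 15 largest falls among called genes whose arrays did not overlap and whose means were above the dim limit, up to 6 members of each list by size of difference, and 6 genes on each side of each comparison with another tumour. Of 474 entries in 29 lists, 373 were on the array and 322 were tested. The members and lists were chosen with earlier results of these data known. Alternatives changed the scaling, filter, dim limit, spread, pairing and the arrays used.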

Additional observations from a re-analysis of the deposited data

Results flagged for a closer look

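The genes below had a bound-to-total difference in the Recruited tumour that differed from that of another tumour by limma's test of the difference of differences (adjusted p under 0.05). Values are log2 with dim means raised, and each was still called without pair 3. Against the Pdgf tumour, the difference of differences was 5.64 for Selenop, 5.42 for Fam107a, 5.08 for Trim25, 5.02 for Trf, 4.86 for Gja1 and 4.74 for Ppp1r14a. On the lower side it was -4.30 for Mef2c, -4.07 for Npm3-ps1, -3.82 for Emb, -3.62 for Ubxn2a, -3.52 for Dusp14 and -3.51 for Ogfrl1. Trim25, a ubiquitin ligase of antiviral signalling, differed by 3.38 in the Recruited and -1.69 in the Pdgf tumour. Mef2c, a transcription factor made by neurons and microglia, differed by -4.30 in the Recruited tumour and was dim on both sides in the Pdgf tumour.

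Against the Pdgf Cre tumour, the difference of differences was 5.41 for Mgst1, 4.87 for Gsta4, 4.75 for Itih3, 4.68 for Gja1, 4.45 for Fxyd1 and 4.44 for Fam107a. On the lower side it was -3.20 for Tpbg, -3.13 for Vamp1, -3.05 for Emb, -3.02 for Cacng5, -2.96 for Amy1 and -2.92 for Pkib. Gsta4, a glutathione transferase, differed by 1.67 in the Recruited and -3.20 in the Pdgf Cre tumour. Both tests use the same 6 Recruited arrays, so genes named in both are not independent.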

How the results depend on the processing

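Scaling had the largest effect on the counts. On the deposited scale, 973 genes were higher and 2092 lower in bound RNA, and with each group shifted to 1 median, an alternative chosen after seeing the data, 1908 were higher and 1247 lower. Scaled to the spike-in controls, 7684 genes were called, 14 higher and 7670 lower. On that scale 598 were called against the Pdgf tumour (80 higher), and 4470 against the Pdgf Cre tumour (19 higher, 4451 lower). Of 125 called named genes, 33 changed sign on the spike-in scale and 0 did so relative to the median. A dim limit of 100 gave 416 lower against the Pdgf tumour, and 705 called with 292 lower against the Pdgf Cre tumour. Without raising dim means, 2235 (1184 higher, 1051 lower) and 1933 (994 higher, 939 lower) were called against the Pdgf and the Pdgf Cre tumour. Leaving out 1 pair or array at a time gave 2662 to 3146 calls in the Recruited tumour (1422 to 1660 higher, 1240 to 1486 lower), 1260 to 1670 against the Pdgf and 999 to 1445 against the Pdgf Cre tumour. Spry1, at 0.18 over all arrays, ranged from -1.01 to 0.78 in these settings, and was lowest and called without the total array of pair 3 (adjusted p = 0.0135 in limma); the cause was not tested. With the pair as a block, 3055, 1675 and 1384 genes were called in these 3 comparisons, within 1.5 times the counts without it; of the named genes 14 gained and 0 lost a call. Estimating the spread from the 6 Recruited arrays alone gave 2047 calls, and 42 named genes lost theirs. Few arrays and the dim limit bound what could be seen.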

Other observations

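Gene groups not described above are given beside the 29.7% of all tested genes that were called. Of 9 neural stem and immature genes 2 were higher and 1 lower, a share near that of all genes. Prom1, a membrane protein of stem cells that oligodendrocytes also make, had 7.90, 9.98 and 10.85 in bound RNA, against 5.35, 5.99 and 8.35 in total RNA (8.05-fold, adjusted p = 0.00349 in limma), and within each pair bound RNA was higher. Hes5, a target of Notch signalling, had 7.26, 8.61 and 8.93 in bound RNA, against 5.32, 5.67 and 5.82 in total RNA (difference 2.62 with the dim mean raised, adjusted p = 0.00212), with 2 of 3 total arrays above the dim limit. Both were called in each setting that left out a pair or an array, but Prom1 was not called with the spread from the 6 Recruited arrays alone.

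Of 9 hypoxia and glycolysis genes 4 were lower and 0 higher, and 2 were lower without pair 3. Pfkl, a phosphofructokinase subunit, had 8.60, 8.70 and 8.48 in bound RNA, against 10.26, 9.90 and 10.71 in total RNA, and the groups did not overlap (3.25-fold lower, adjusted p = 7.06e-05). Among 18 genes of endoplasmic reticulum secretion 1 was higher and 1 lower. Pdia4, a disulphide isomerase, had 6.47, 6.36 and 5.62 in bound RNA, against 10.73, 8.10 and 6.88 in total RNA (5.37-fold lower, adjusted p = 0.00508), and total RNA of pair 1 was the highest. Of 13 immediate early genes 1 was higher and 1 lower. Nr4a1, an orphan nuclear receptor, had 10.14, 11.10 and 9.77 in bound RNA, against 9.58, 8.63 and 8.26 in total RNA (2.86-fold higher, adjusted p = 0.0018). Pdia4 and Nr4a1 were not called with the spread from the 6 Recruited arrays alone. Among 10 cell cycle inhibitors 2 were higher and 1 lower, and among 10 receptor tyrosine kinase signalling genes 0 were higher and 1 lower. Of 6 ependymal and choroid plexus genes 1 was higher and 0 lower, a call that ended without pair 3.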
